A study of Mus musculus with 6 samples.

Results

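Glucose handling by the liver was followed here through 8 genes in mouse hepatocytes sorted by DNA content. Slc2a2 encodes the hepatic glucose transporter, Pfkl the liver subunit of phosphofructokinase, Pklr the liver pyruvate kinase and Gys2 the liver glycogen synthase. Pck1, Fbp1 and G6pc encode the enzymes that carry flux around the irreversible steps of glycolysis towards glucose, and Ppargc1a encodes a coactivator of their transcription. The members were all probe sets whose platform annotation gave 1 symbol equal to 1 of these 8 names. The rule found 16 probe sets for the 8 genes, of 22626 probe sets tested, 20380 of which carried a single symbol and stood for 12393 genes. Ppargc1a had 5, Pklr 3, Pck1 and Pfkl 2 each, and the other 4 genes had 1 each. An Affymetrix probe set is a group of short probes summarised to 1 value. The suffix a_at marks a set that matches several transcripts of a gene, and x_at one whose probes may also bind transcripts of other genes.

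The arrays held RNA of tetraploid hepatocytes, with 3 samples, and of diploid hepatocytes, with 3 samples. Both fractions came from livers of wild-type C57BL/6 mice 3 weeks old, so genotype, strain and age were shared. Freshly isolated cells were stained with the DNA dye Hoechst 33342 and sorted by flow cytometry, and their RNA was taken at once. A sort by DNA content does not separate a tetraploid cell from a diploid cell that has copied its DNA. The replicates are labelled biological, with no mention of how many animals they came from, so the p-values rest on a spread that may be partly technical.

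Liver cells take up glucose after a meal, burn it through glycolysis or store it as glycogen, and between meals release glucose from glycogen and from gluconeogenesis. Insulin and glucose raise transcription of Pklr in liver, while glucagon, acting through cyclic AMP, and glucocorticoids raise Pck1, G6pc and Ppargc1a. In the mouse lobule the gluconeogenic enzymes are more abundant near the portal vein, and the glycolytic enzymes near the central vein.

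The promoters of 4 members are shown because elements for these signals are known from the genes and because their array-to-array order is compared below. RefSeq promoter sequences of build GRCm38.p6 were matched for 7 of the 8 genes. Each line gives the 250 bases before the annotated start of transcription, 5′ to 3′ on the strand of the gene, with matches to the searched motifs in capitals. The regions were chr2:173152823-173153072 on the plus strand for Pck1, chr5:51567726-51567975 on the minus strand for Ppargc1a, chr11:101367466-101367715 on the plus strand for G6pc, and chr3:89136373-89136622 on the plus strand for the downstream of the starts listed for Pklr.
Pck1: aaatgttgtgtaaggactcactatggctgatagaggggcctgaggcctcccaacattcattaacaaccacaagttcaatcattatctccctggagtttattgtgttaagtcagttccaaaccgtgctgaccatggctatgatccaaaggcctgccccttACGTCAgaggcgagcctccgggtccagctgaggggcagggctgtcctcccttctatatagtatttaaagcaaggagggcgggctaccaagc
Ppargc1a: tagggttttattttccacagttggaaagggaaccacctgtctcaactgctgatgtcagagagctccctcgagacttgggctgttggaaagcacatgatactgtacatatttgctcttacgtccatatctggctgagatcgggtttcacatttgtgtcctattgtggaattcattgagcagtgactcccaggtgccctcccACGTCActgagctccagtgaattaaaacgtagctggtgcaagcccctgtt
G6pc: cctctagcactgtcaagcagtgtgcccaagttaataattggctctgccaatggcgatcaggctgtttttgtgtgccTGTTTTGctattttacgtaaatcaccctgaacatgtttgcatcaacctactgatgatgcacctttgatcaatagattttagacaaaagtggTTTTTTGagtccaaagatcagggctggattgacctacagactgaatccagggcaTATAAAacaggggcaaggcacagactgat
Pklr: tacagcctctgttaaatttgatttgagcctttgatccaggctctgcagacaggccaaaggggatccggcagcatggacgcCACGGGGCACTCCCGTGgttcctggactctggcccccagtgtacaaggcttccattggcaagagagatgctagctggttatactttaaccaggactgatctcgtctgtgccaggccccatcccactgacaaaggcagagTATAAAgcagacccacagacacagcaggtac

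Motifs were searched on both strands. The core of the cyclic AMP response element, ACGTCA, stood 91 bases before the start of Pck1 and 50 bases before that of Ppargc1a, and 6.47% of 32851 promoter regions of the same length held it. The spaced inverted repeat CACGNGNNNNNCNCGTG, the form of the carbohydrate response element known from the liver pyruvate kinase promoter, stood 170 bases before the start of Pklr and occurred in 0.0396% of all these regions. TNTTTTG is a loose form of the insulin response element core, with any base allowed at N, so a match need not be such an element. It matched 174 bases (TGTTTTG) and 83 bases (TTTTTTG) before the start of G6pc, and was found in 16.9% of all regions. Of the members not printed, Slc2a2 also matched it, on the opposite strand 211 bases before its start (CAAAAGA). The TATA box letters TATAAA stood 29 bases before the start of G6pc and 31 bases before that of Pklr, and in 12.4% of all regions. No motif letters overlapped between motifs in these 4 sequences. A match describes the letters only.

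None of the 8 genes passed a test of the difference by ploidy. Levels below are log2 of the deposited intensity. Each difference subtracts the diploid from the tetraploid mean, and its standard error (SE) comes from the limma fit to all 22626 probe sets. At a Benjamini-Hochberg adjusted limma p under 0.05, 0 of 16 member probe sets passed, and 0% of all 22626 probe sets did. At an unadjusted p under 0.05, 0 member probe sets were higher in tetraploid samples and 0 were lower. Of all probe sets, 3.35% were higher and 3.55% were lower at that level. The fractions did not overlap in 1 of the 16 member probe sets, against 12.7% of all probe sets. The smallest adjusted p among members was 0.875, and the median difference was 0.01 for the 16 probe sets and -0.01 for all probe sets. The limma 95% interval stayed within 2-fold in either direction for all 16 probe sets and within 1.5-fold for 10 of them.

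**Figure D1:**
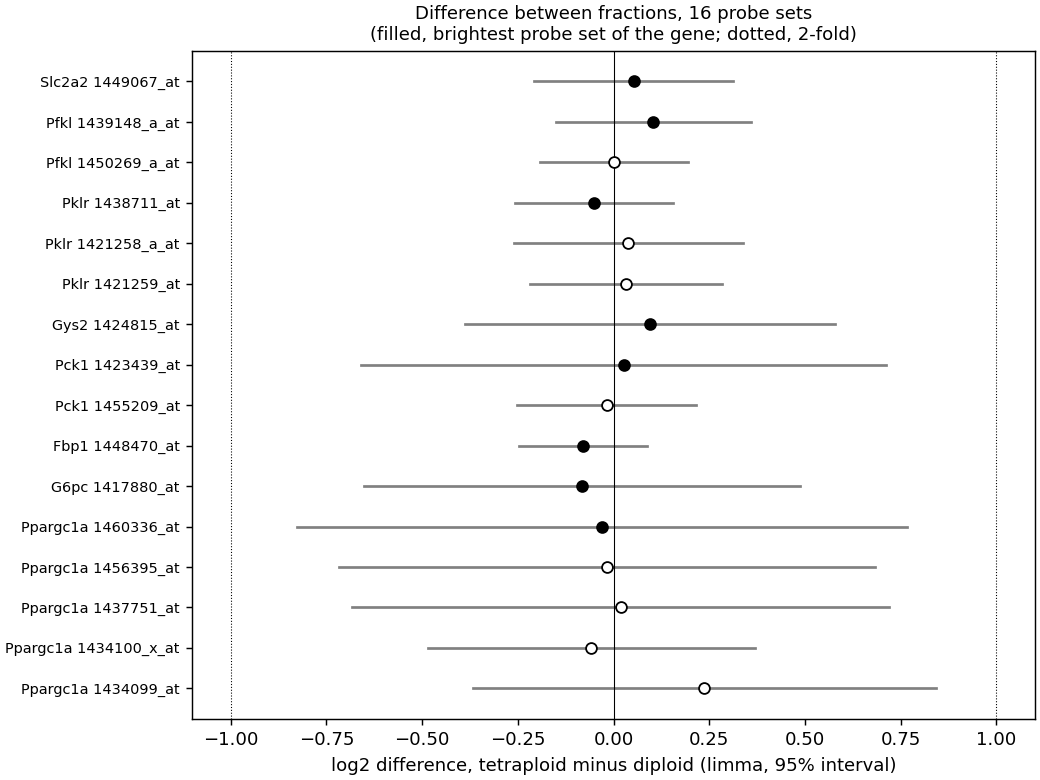
Log2 difference, tetraploid minus diploid, for the 16 member probe sets, with the 95% interval of the limma fit as a bar. Filled points mark the brightest probe set of each gene, open points the others, and dotted lines a 2-fold difference. Every interval holds 0 and lies between the dotted lines, and those of Ppargc1a, Pck1, G6pc and Gys2 are the widest among the filled points.

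The members of glucose uptake and glycolysis, Slc2a2, Pfkl and Pklr, did not pass the test. Slc2a2 stood at 13.35, 13.61 and 13.34 in tetraploid replicates 1 to 3, against 13.26, 13.33 and 13.56 in diploid replicates 1 to 3. The fractions overlapped, with tetraploid replicate 2 and diploid replicate 3 above the other 4 arrays. The difference was 0.05 ± 0.11 (SE, n = 3 per fraction, limma adjusted p = 0.955), a ratio of 1.04 with a 95% interval from 0.867 to 1.24.

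Pfkl, which catalyses the committed step of glycolysis, was read by 2 probe sets. The brighter one, 1439148_a_at, gave 6.64, 6.90 and 6.97 in tetraploid samples, against 6.65, 6.68 and 6.87 in diploid samples, a difference of 0.10 ± 0.11 (SE). This was the largest difference in size among the brightest probe sets of the 8 genes, and its fractions overlapped (limma adjusted p = 0.893). The other, 1450269_a_at, had a range of 6.59 to 6.62 in tetraploid samples, against 6.52 to 6.73 in diploid samples, and a difference of 0.002 ± 0.084 (SE).

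For Pklr, the enzyme of the last glycolytic step, 3 probe sets were present. Its brightest, 1438711_at, stood at 9.28, 9.31 and 9.21 in tetraploid samples, against 9.27, 9.22 and 9.47 in diploid samples. All tetraploid values fell inside the diploid range except that of replicate 3, which lay just below it. The difference was -0.05 ± 0.09 (SE, limma adjusted p = 0.942). The dimmer probe sets 1421258_a_at and 1421259_at gave 0.04 ± 0.13 and 0.03 ± 0.11, so the direction differed between probe sets of this gene while each size stayed below its standard error.

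Gys2, which adds glucose units to glycogen, varied more between arrays. It stood at 10.27, 10.96 and 10.47 in tetraploid samples, against 10.21, 10.34 and 10.86 in diploid samples. Each fraction held a high array, tetraploid replicate 2 and diploid replicate 3, which stood above the other 4. The difference was 0.10 ± 0.21 (SE, limma adjusted p = 0.956), with a ratio of 1.07 and a 95% interval from 0.764 to 1.49.

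Among the gluconeogenic enzymes, Pck1 spread almost 2-fold inside each fraction. Its bright probe set, 1423439_at, stood at 12.98, 13.95 and 13.72 in tetraploid samples, against 12.93, 13.88 and 13.76 in diploid samples. Replicate 1 was the low array of both fractions, and the other 4 arrays lay close together. In intensity units the lowest and highest tetraploid values were 8080 and 15798, against 7779 and 15072 in diploid samples. The difference was 0.03 ± 0.30 (SE, limma adjusted p = 0.993), a ratio of 1.02 with an interval from 0.633 to 1.64. The other Pck1 probe set, 1455209_at, stayed between 4.98 and 5.25 on all 6 arrays, near the lower quartile of 5.06 over the brightest probe set of each gene, with tetraploid replicate 2 and diploid replicate 1 at the low end of their fractions.

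G6pc, the catalytic subunit that releases free glucose, followed another order. It stood at 12.22, 12.02 and 12.85 in tetraploid samples, against 12.34, 12.90 and 12.10 in diploid samples. Tetraploid replicate 3 and diploid replicate 2 were high, and tetraploid replicate 2 and diploid replicate 3 were the lowest, the same arrays that were highest for Gys2. The highest value was 1.77 times the lowest among tetraploid samples and 1.73 times among diploid samples. The difference between fractions was -0.08 ± 0.25 (SE, limma adjusted p = 0.967).

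Fbp1, the fructose bisphosphatase, was the member whose fractions did not overlap. It stood at 14.63, 14.62 and 14.64 in tetraploid samples, against 14.73, 14.74 and 14.66 in diploid samples. All 3 tetraploid values were lower than all 3 diploid values, yet the highest tetraploid and the lowest diploid value lay only a small fraction of a log2 unit apart. The difference was -0.08 ± 0.07 (SE, limma adjusted p = 0.875), a ratio of 0.946 with a 95% interval from 0.842 to 1.06. Its probe set was brighter than 99.8% of probe sets.

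**Figure D2:**
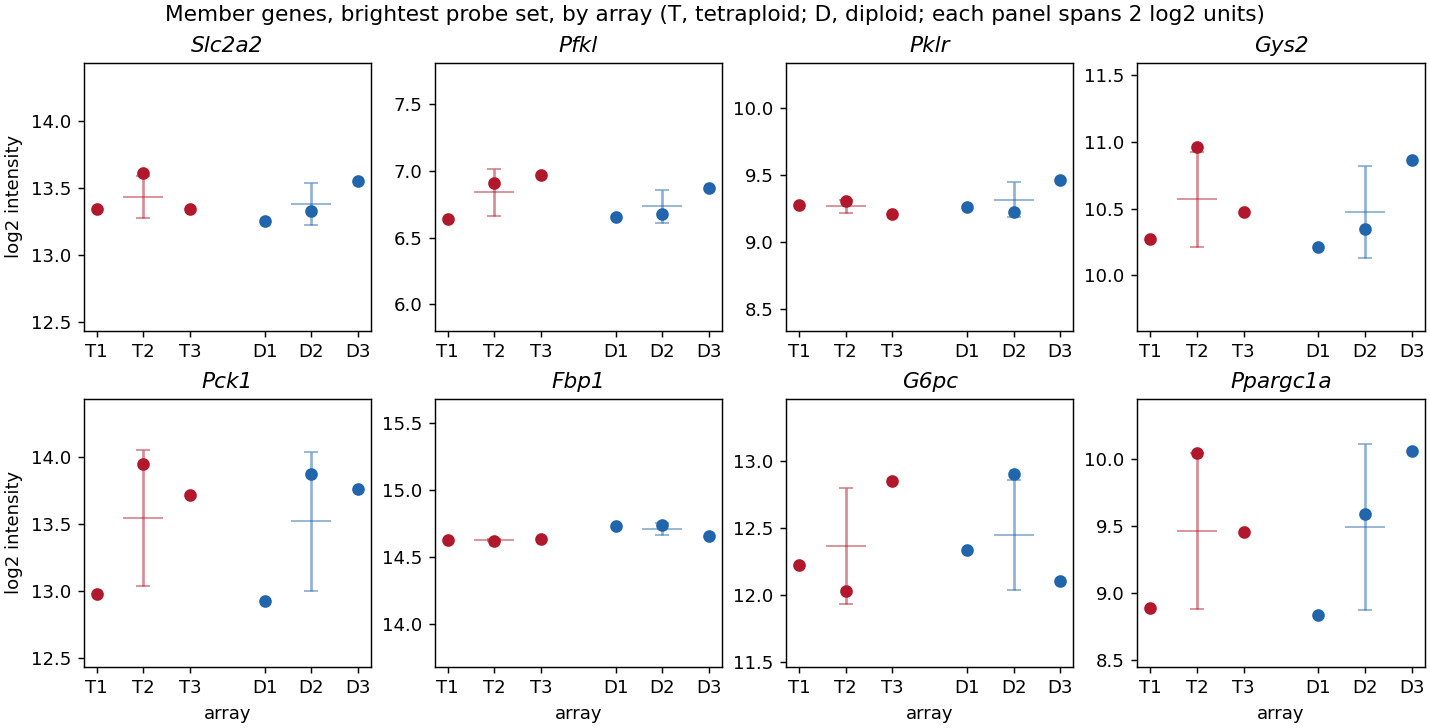
Log2 intensity on each array for the brightest probe set of the 8 genes, tetraploid replicates (T) left of diploid replicates (D), with the mean and SD of each fraction as a dash and bar. Each panel spans the same 2 log2 units. Fbp1 is nearly flat, while Ppargc1a, Pck1, G6pc and Gys2 spread inside both fractions by more than the fractions differ.

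Ppargc1a, the coactivator that raises gluconeogenic and mitochondrial genes in fasting liver, had the widest spread of the members. Its brightest probe set, 1460336_at, stood at 8.89, 10.05 and 9.45 in tetraploid samples, against 8.83, 9.58 and 10.06 in diploid samples. The lowest arrays were tetraploid replicate 1 and diploid replicate 1, the highest were tetraploid replicate 2 and diploid replicate 3, and the fractions overlapped over nearly their whole range. The highest value was 2.23 times the lowest among tetraploid samples and 2.34 times among diploid samples. Between fractions the difference was -0.03 ± 0.35 (SE, limma adjusted p = 0.993), a ratio of 0.979 with an interval from 0.563 to 1.70.

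The other Ppargc1a probe sets gave differences of -0.02 ± 0.31 for 1456395_at, 0.02 ± 0.31 for 1437751_at, -0.06 ± 0.19 for 1434100_x_at and 0.24 ± 0.26 for 1434099_at (SE, n = 3 per fraction). The last was the member probe set with the largest difference, and its fractions overlapped as well, with means of 7.80 ± 0.33 in tetraploid and 7.57 ± 0.54 in diploid samples (SD, n = 3). In 5 of the 5 probe sets, tetraploid replicate 1 and diploid replicate 1 were the lowest arrays and tetraploid replicate 2 and diploid replicate 3 the highest. Over the 10 pairs of these probe sets the Pearson correlation across the 6 arrays lay between 0.863 and 0.996, a description of probe sets that read the same gene from the same RNA.

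**Figure D3:**
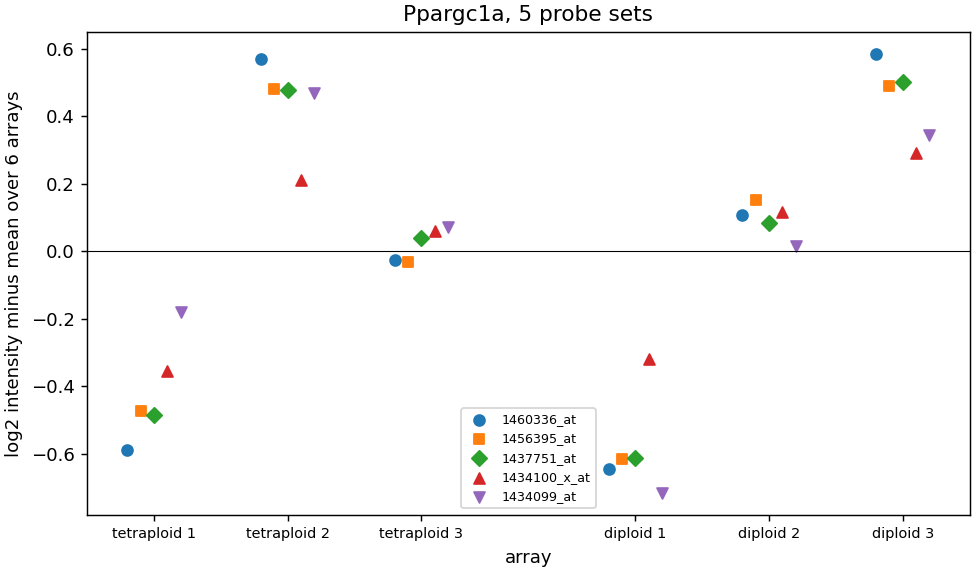
Deviation of the log2 intensity from the mean over the 6 arrays for the 5 Ppargc1a probe sets, 1 symbol each. All 5 are below 0 on tetraploid replicate 1 and diploid replicate 1 and above 0 on tetraploid replicate 2 and diploid replicate 3.

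The spread inside fractions thus set the members apart from each other. The pooled SD within fractions was 0.60 for Ppargc1a, 0.51 for Pck1, 0.42 for G6pc and 0.35 for Gys2, each above 0.23, the 90th percentile over all probe sets. It was 0.16 for Slc2a2, 0.15 for Pfkl, 0.10 for Pklr and 0.03 for Fbp1, where the median over all probe sets was 0.12. In all, 8 of the 16 member probe sets, from 4 of the 8 genes, lay above the 90th percentile.

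The order of the arrays was alike in some members and differed in others. By the brightest probe sets, replicate 1 of both fractions gave the lowest pair for Ppargc1a, Pck1, Gys2 and Pfkl. These were 4 of the 8 genes, against 9.20% of all 12393 genes. Over probe sets it was 8 of 16, and 5 of those were of Ppargc1a. The other Pck1 probe set, 1455209_at, lacked this order. In the other Pfkl probe set, 1450269_a_at, replicate 1 of both fractions gave the highest pair instead. Tetraploid replicate 2 and diploid replicate 3 gave the highest pair for Ppargc1a, Gys2, Slc2a2 and Pklr, 4 of the 8, against 10.7% of all genes. The Pklr probe set 1421258_a_at lacked that order. Both orders held for Ppargc1a and Gys2, and for 3.49% of all genes. The pairs of arrays were picked after the members' values were seen, so these shares describe the members and test nothing. The same pairs also matched best over all probe sets. There, deviations from the fraction means correlated at 0.44 for replicate 1 of both fractions, and at 0.56 for tetraploid replicate 2 with diploid replicate 3. Across the 6 arrays, which were normalized together, Pearson's r was 0.98 between Gys2 and Slc2a2, 0.92 between Ppargc1a and Gys2, 0.91 between Ppargc1a and Pck1, -0.63 between G6pc and Slc2a2 and -0.72 between G6pc and Pklr. For Fbp1 it was -0.57 with Slc2a2, -0.53 with Gys2 and -0.59 with Pfkl. These are descriptions over few arrays, and no label names what distinguished the arrays within a fraction. The printed promoters of Pck1 and Ppargc1a both hold the ACGTCA core, and the r of this pair was 0.91. It was not the highest, and Slc2a2, with r of 0.98 with Gys2, had no match to that core. The search took these exact letters only, so a variant of the element would not be counted. Gys2, with r of 0.92 with Ppargc1a and 0.71 with Pck1, had no promoter sequence to search. Searched members without a match to these letters varied. With Ppargc1a, r was 0.87 for Slc2a2, 0.70 for Pfkl, 0.52 for Pklr, -0.19 for G6pc and -0.29 for Fbp1. With Pck1, it was 0.63, 0.68, 0.14, 0.20 and -0.15 in the same order. Whether the motif bears on this was not tested.

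The genes most like each member over the 6 arrays were sought among 9293 genes above the lower quartile of brightness. For Ppargc1a these were Saa4 (r = 0.998) and Ttc39c (r = 0.996), and 129 genes exceeded an r of 0.95. Pck1 was closest to Gopc (r = 0.996) and Map2k4 (r = 0.994), and G6pc to Atp2a2 (r = 0.996) and Rdh16 (r = 0.993). Gys2 was closest to Zbtb16 (r = 0.996) and Susd6 (r = 0.994), and Slc2a2 to Ctps2 (r = 0.995) and Hook2 (r = 0.992). The closest to Fbp1 were Rangrf (r = 0.993) and Fancc (r = 0.992), to Pfkl Baiap2 (r = 0.987) and Orai1 (r = 0.979), and to Pklr Ndc1 (r = 0.978) and Prkcsh (r = 0.966). With so few arrays and so many genes, high values of r are common.

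Other genes of the same pathways were described from lists, with the brightest probe set standing for each gene. At an unadjusted limma p under 0.05, 1.84% of all 12393 genes were higher and 4.02% lower in the tetraploid fraction, 0 genes passed the adjusted threshold, and the median difference was -0.02. Among 15 measured glycolysis genes, 1 was higher, none was lower and the median was -0.07. That gene was Hk2, a hexokinase that is scarce in adult liver, at 5.42 ± 0.10 in tetraploid and 5.18 ± 0.13 in diploid samples (SD, n = 3), a difference of 0.24 ± 0.10 (SE, limma adjusted p = 0.712). The lactate dehydrogenase gene Ldha differed by 0.17 ± 0.08, and the muscle and platelet phosphofructokinase genes Pfkm and Pfkp by -0.23 ± 0.11 and -0.19 ± 0.09 (SE).

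Neither direction had any call among 13 further genes of gluconeogenesis, whose median was -0.04. Pcx, the pyruvate carboxylase that feeds Pck1 with oxaloacetate, differed by -0.18 ± 0.09, the ubiquitous phosphatase subunit G6pc3 by -0.16 ± 0.09, the mitochondrial isozyme Pck2 by 0.03 ± 0.16 and the glycerol phosphate dehydrogenase Gpd2 by 0.06 ± 0.11 (SE). Among 19 genes of glycogen metabolism, again 0 passed in either direction and the median was 0.02. Gys1, the muscle glycogen synthase, differed by -0.39 ± 0.18, the phosphoglucomutase Pgm2 by -0.17 ± 0.11, the glycogen-binding protein Stbd1 by 0.26 ± 0.13 and the branching enzyme Gbe1 by 0.15 ± 0.10 (SE).

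The 12 genes of pyruvate and lactate entry had a median of 0.06, with 0 higher and 0 lower. Dld, a subunit of pyruvate dehydrogenase, differed by 0.13 ± 0.07, its inhibitory kinase Pdk1 by 0.20 ± 0.13, Pdk3 by -0.03 ± 0.15 and Pdha1 by -0.02 ± 0.08 (SE). Of 13 genes of fructose, galactose and pentose phosphate metabolism 1 was higher, the pentose phosphate epimerase Rpe, at 0.21 ± 0.09, with a median of 0.01 for the list. Rpia differed by 0.06 ± 0.12, the fructose transporter Slc2a5 by -0.18 ± 0.11 and H6pd by -0.08 ± 0.08 (SE). The 16 isoforms that belong mainly to other tissues, some of them also counted above, had a median of -0.08 with 1 higher, again Hk2, and the transporter Slc2a1 differed by 0.13 ± 0.09.

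Regulators gave few differences by ploidy. The 30 transcriptional regulators of glucose genes had a median of 0.02, and 1 of them was lower. The lower one was Crtc2, a coactivator through which cyclic AMP acts on Pck1, G6pc and Ppargc1a, at 6.68 ± 0.06 in tetraploid and 6.89 ± 0.08 in diploid samples (SD, n = 3), a difference of -0.21 ± 0.08 (SE, limma adjusted p = 0.709). Crebbp differed by -0.12 ± 0.09, Ppara by 0.33 ± 0.19 and Esrrg by 0.09 ± 0.07. The 20 insulin and glucagon signalling genes had a median of 0.02, and 2 of them were higher. These were Prkar2a, a regulatory subunit of the cyclic AMP dependent kinase, at 0.38 ± 0.10 (SE, limma adjusted p = 0.504), and Pik3r1, the regulatory subunit of phosphoinositide kinase, at 0.48 ± 0.20 (SE, limma adjusted p = 0.719). The glucagon receptor Gcgr differed by -0.13 ± 0.07 and the kinase subunit Prkacb by -0.10 ± 0.09. Of 19 genes that respond to cyclic AMP or to cell isolation, 0 passed in either direction, with a median of 0.01. Klf6 differed by 0.27 ± 0.14, Ier3 by 0.16 ± 0.09, Fos by -0.13 ± 0.13 and Tat by -0.13 ± 0.36 (SE).

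**Figure D4:**
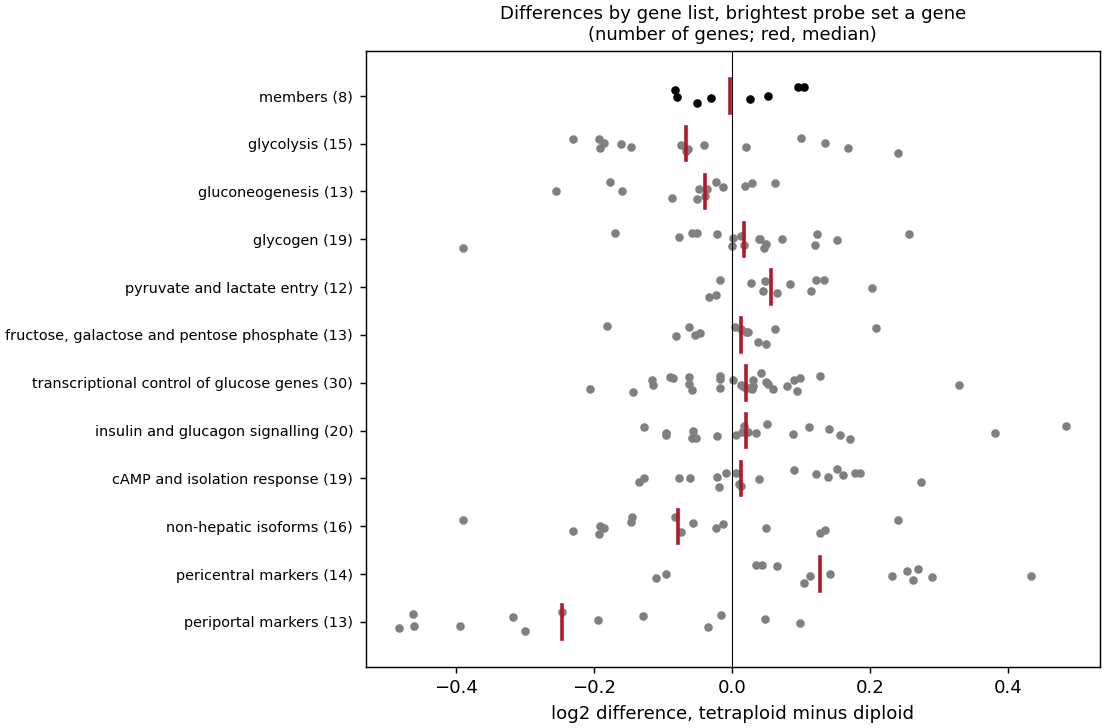
Log2 difference, tetraploid minus diploid, for each gene of the 11 pathway and zonation lists and for the 8 members, with the number of genes in brackets and a red line at the median. The members lie between -0.08 and 0.10, the median of the periportal markers is at -0.25 and that of the pericentral markers at 0.13.

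Zonation markers were set beside the members, from lists chosen with earlier results of these data known. At an unadjusted limma p under 0.05, 7 of 13 periportal markers were lower, against 4.02% of all genes. None of the 13 was higher, and their median was -0.25. The smallest p values were those of Hsd17b6 at -0.48 ± 0.09 and Aldh1b1 at -0.46 ± 0.11 (SE). In the pericentral list 4 of 14 markers were higher, against 1.84% of all genes, among them Gulo at 0.29 ± 0.09 and Oat at 0.26 ± 0.08 (SE). None of the 14 was lower, and the median was 0.13. Against these directions, the pericentral Glul and Cyp2c54 stood at -0.11 ± 0.11 and -0.10 ± 0.16, and the periportal Hsd17b13 and Apof at 0.10 ± 0.09 and 0.05 ± 0.07 (SE). None of these passed the adjusted threshold. By their brightest probe sets, the portal-side members Pck1, Fbp1 and G6pc stood at 0.03, -0.08 and -0.08. The central-side members Pklr and Pfkl stood at -0.05 and 0.10. Their other probe sets gave 0.04 and 0.03 for Pklr and 0.002 for Pfkl, and that of Pck1 gave -0.02. The part of zonation in the members' values was not tested.

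Of the hepatocyte markers, 13 of 13 measured were above the lower quartile of brightness and none passed an unadjusted limma p of 0.05 between fractions. Their summed intensity ran from 328437 to 339313 in tetraploid and from 326314 to 338165 in diploid samples. Alb read 15.57 on all 3 tetraploid arrays, with an SD of 0, so differences among the brightest markers may not show. Markers of liver endothelial cells summed to 1227 to 1459 in tetraploid and 1146 to 1269 in diploid samples. At an unadjusted limma p under 0.05, 3 of these 12 were higher, against 1.84% of all genes, with 0 lower. In RNA from many cells, fewer cells of a type and less RNA per cell cannot be told apart. Above the lower quartile of brightness stood 10 of 12 endothelial, 7 of 12 Kupffer cell and macrophage, 6 of 10 stellate cell, 2 of 6 cholangiocyte, 3 of 9 leukocyte and 3 of 5 erythroid markers. At the same p threshold 0 of 12 Kupffer cell and macrophage markers and 0 of 5 erythroid markers passed. In the stellate cell, cholangiocyte and leukocyte lists 1 marker each was lower and none higher, of 10, 6 and 9 measured, and the summed leukocyte markers ran from 305 to 308 in tetraploid and from 325 to 334 in diploid samples. The part of other cell types in the members' values was not tested.

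**Figure D5:**
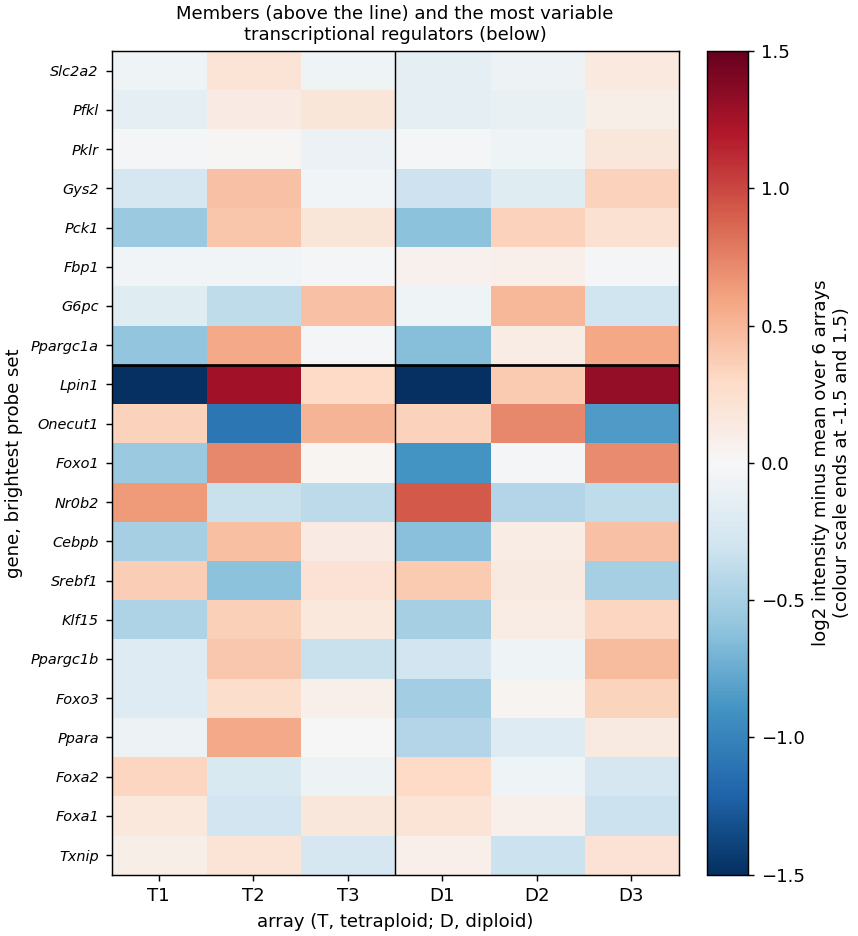
Deviation of the log2 intensity from the mean over 6 arrays for the 8 members, above the line, and for the 13 of 30 transcriptional regulators whose spread within fractions lay above the 90th percentile of all probe sets, below it, with tetraploid arrays (T) left of diploid arrays (D). Foxo1 and Cebpb are low on T1 and D1 and high on T2 and D3, as Ppargc1a is. Onecut1 is lowest on T2 and D3, as G6pc is.

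Foxo1 and Cebpb, transcription factors that act on gluconeogenic genes, were named after their values were seen, for this likeness to members. Foxo1 stood at 8.25, 9.52 and 8.83 in tetraploid samples, against 7.92, 8.79 and 9.52 in diploid samples. Cebpb stood at 12.10, 13.04 and 12.72 in tetraploid samples, against 11.96, 12.71 and 13.03 in diploid samples. Both had the low and high arrays of Ppargc1a, and their differences between fractions were 0.13 ± 0.42 and 0.05 ± 0.30 (SE, limma adjusted p = 0.971 and 0.986).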

How the data were processed

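Total RNA of 6 samples was labelled with biotin and hybridised to Affymetrix arrays, 3 tetraploid and 3 diploid. The authors deposited linear intensities, a single value for every probe set on every array. They came from RMA, which corrects background, equalises the arrays and summarises probes, per the submitters' processing notes, and its version is not given in the sources used here. Equalising the arrays removes any difference in total RNA per cell, so each difference is relative to the other transcripts. Array medians lay between 86.4 and 89.2, and the number of arrays limits the precision.

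The table lists 22690 probe sets, of which 64 are controls and were not tested. In the platform annotation 20380 of the rest carry 1 symbol, 691 several and 1555 none. The Entrez identifiers of all 8 genes matched RefSeq, and 0 symbols changed. Log2 intensities were fitted without a filter by limma (version 3.58.1, under R 4.3.3), using lmFit and then eBayes with ploidy as the single factor and two-sided p-values, and p-values were adjusted over all 22626 probe sets (Benjamini-Hochberg, threshold 0.05). All 16 member probe sets lie in that fit. The brightest probe set over the 6 arrays stood for a gene in counts over lists. The code was tested on simulated data.

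All members were named, and from each pathway and zonation list up to 2 genes with the smallest p in each direction, and for each member the 2 genes of highest r. The 11 pathway and zonation lists and 7 marker lists (hepatocyte, endothelial, Kupffer cell, stellate cell, cholangiocyte, leukocyte, erythroid) came from general knowledge. Members and lists were chosen with earlier results of these data known. Alternatives changed the filter, the probe set per gene, the normalization, the pseudocount, the weights, the variance model, the block and the samples.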

Additional observations from a re-analysis of the deposited data

How the results depend on the processing

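The call did not change for any member: 0 of 224 member values under the alternatives passed the adjusted threshold, and 0 member probe sets passed an unadjusted p of 0.05 under any of them. Because the differences were small, their direction was not fixed, and 39 of the 224 values changed sign. With the mean over the probe sets of a gene, the differences of Pklr and Ppargc1a became 0.0068 and 0.030. Quantile normalization gave 0.016 for Pck1 1455209_at, -0.010 for Pfkl 1450269_a_at and -0.010 for Ppargc1a 1437751_at, and centring on the median gave -0.0038 for Pfkl 1450269_a_at. Array weights gave -0.10 for Pck1 1423439_at and -0.12 for Ppargc1a 1437751_at. The cause was not tested.

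Leaving out each sample in turn changed the sign of 14 of 16 differences at least once, Fbp1 and Pfkl 1439148_a_at being the exceptions. The ranges were -0.36 to 0.26 for Ppargc1a 1460336_at, -0.33 to 0.22 for 1456395_at, -0.28 to 0.28 for 1437751_at, -0.23 to 0.11 for 1434100_x_at and -0.061 to 0.47 for 1434099_at. For Pck1 they were -0.27 to 0.31 and, for 1455209_at, -0.085 to 0.056. For G6pc the range was -0.33 to 0.14, for Gys2 -0.10 to 0.29, for Slc2a2 -0.037 to 0.14 and for Pfkl 1450269_a_at -0.038 to 0.068. For Pklr it was -0.10 to 0.022 for 1438711_at, -0.059 to 0.17 for 1421258_a_at and -0.052 to 0.12 for 1421259_at.

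Over all probe sets, 1561 had an unadjusted limma p under 0.05, and 739 did with 1 probe set a gene and 788 with the mean of a gene, where fewer features were tested. Leaving out single samples gave 1022 to 1687, the lowest without diploid replicate 1, and 0 to 1 past the adjusted threshold, where tetraploid replicate 1 left out gave the 1. With the replicate number as a block, 10 probe sets passed the adjusted threshold, none of them a member, and 1534 had an unadjusted p under 0.05. The numbers were not taken to pair the samples: over all probe sets the deviations of samples with the same number correlated at 0.44, -0.15 and -0.16 for replicates 1 to 3. Tetraploid replicate 1 correlated best with diploid replicate 1, tetraploid replicate 2 with diploid replicate 3 (0.56) and tetraploid replicate 3 with diploid replicate 2 (0.24), a hint from the data and not from the design. No fit used this matching, so the standard errors and intervals given above treat the samples as unpaired.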

Other observations

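Several genes around the members varied between arrays far more than between fractions. They were named after their values were seen, and no label says what set the arrays of a fraction apart. Pfkfb3, which makes the activator of phosphofructokinase, stood at 5.19, 8.27 and 6.66 in tetraploid samples, against 5.14, 6.59 and 8.09 in diploid samples, a span of 8.43-fold and 7.77-fold. Lpin1, a phosphatidate phosphatase that also assists Ppargc1a, stood at 9.89, 12.90 and 11.93 in tetraploid samples, against 10.09, 12.03 and 12.95 in diploid samples, a span of 8.03-fold and 7.25-fold. Both had the low and high arrays of Ppargc1a. So did 6 of the 30 transcriptional regulators, Foxo1, Foxo3, Hnf4a, Cebpb, Lpin1 and Klf15. Of the 13 further gluconeogenic genes 4 did, Pck2, Slc37a4, Gpt2 and Gpd2, where 3.49% of all genes did. This order was taken from Ppargc1a after its values were seen, and these 2 lists held the most such genes by count. It was not particular to them, because 3 of the 13 hepatocyte markers, Tat, Hnf4a and Tdo2, had it too. The order held in 1 of 15 glycolysis, 0 of 19 glycogen and 1 of 12 pyruvate and lactate genes. Among genes that respond to cyclic AMP or to cell isolation it held in 1 of 19, again Tat. In the fructose, galactose and pentose phosphate list it was 0 of 13, in insulin and glucagon signalling 2 of 20. Periportal and pericentral markers held none.

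Other genes followed a different order. Onecut1, a hepatocyte transcription factor, stood at 8.10, 6.67 and 8.27 in tetraploid samples, against 8.10, 8.47 and 6.90 in diploid samples, low on the arrays where Ppargc1a was high. Srebf1, which raises lipogenic genes under insulin, stood at 11.66, 10.68 and 11.51 in tetraploid samples, against 11.68, 11.42 and 10.80 in diploid samples. The insulin receptor substrate gene Irs2 stood at 8.41, 7.44 and 8.28 in tetraploid samples, against 8.08, 8.15 and 7.43 in diploid samples. Nr0b2, a repressor of nuclear receptors, was high on replicate 1 of both fractions, at 9.63, 8.67 and 8.60 in tetraploid samples, against 9.91, 8.55 and 8.61 in diploid samples. The glycogen-targeting subunit Ppp1r3c ranged over 2.45-fold in tetraploid samples and 2.48-fold in diploid samples, highest on tetraploid replicate 2 and diploid replicate 3.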
